A study of Rattus norvegicus with 12 samples.

Results

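Neurons keep cytosolic calcium low with pumps and exchangers and let it in through gated channels, and the 10 genes described here encode parts of both systems. They were taken by name: the plasma membrane pumps Atp2b1, Atp2b2 and Atp2b3, the reticulum pump Atp2a2, the sodium/calcium exchangers Slc8a1 and Slc8a2, the reticulum release channel Itpr1, the channel pore Cacna1a, and the auxiliary channel subunits Cacna2d1 and Cacna2d3. They are 10 of 10412 genes named on the array, and all 20 probe sets annotated to them were followed, of 15923. The study asked which transcripts differ between neurons that are vulnerable or resistant to oxidative stress. Neurons were captured by laser from frozen brain sections of untreated Fisher 344/BN F1 rats aged 6 months. The cortical neurons came from layers IV to VI. The vulnerable group (VUL) was hippocampal CA1 and cerebellar granule neurons (CbG), and the resistant group (RES) was hippocampal CA3 and cerebral cortical neurons (CTX), with 3 arrays labelled for each of the 4 regions. A captured sample can hold pieces of neighbouring cells, and in such samples fewer cells of a type and less RNA per cell cannot be told apart.

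As background, plasma membrane calcium ATPases (the Atp2b family) push calcium out of the cell with high affinity, while the sodium/calcium exchangers (the Slc8a family) move larger loads. The SERCA pump encoded by Atp2a2 refills the endoplasmic reticulum, and the inositol trisphosphate receptor encoded by Itpr1 releases that store. Cacna1a forms the pore of the P/Q-type channel at nerve terminals, and the Cacna2d proteins bring such channels to the membrane. In the cerebellum, Purkinje cells are known for very high levels of Itpr1 and Atp2b2.

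A pair of arrays went against their labels. The signal of Gabra6, which marks granule cells of the cerebellum, was 15.4 on the array labelled CbG replicate 3 and 2567.6 on the array labelled CA3 replicate 3, against 3379.3 and 1282.9 on CbG replicates 1 and 2 and between 2.8 and 48.0 on the other 8 arrays. Over the 7535 probe sets tested on 12 arrays, Pearson's r of log2 signal with the array labelled CbG replicate 3 was 0.720 and 0.716 for CbG replicates 1 and 2 and 0.973 and 0.956 for CA3 replicates 1 and 2. For CA3 replicate 3, as labelled, it was 0.955 and 0.922 with the CbG arrays and 0.687 and 0.672 with the CA3 arrays. The sum of 2 CA1 markers on the array labelled CbG replicate 3 was 4182.6, above the 1151.6 and 482.2 of CA3 replicates 1 and 2. The members were therefore fitted over the 10 other arrays. Counts of calls, and the fitted differences in the plot of the 3 comparisons, are also given for all 12 arrays as labelled and for all 12 with those 2 labels exchanged. The values are MAS5 signals, a brightness per probe set on a linear scale. Summed region markers were highest in the labelled region on those 10 arrays: the sum of the CA1 markers was 18152.9 to 22596.3 in CA1 and 246.3 to 1151.6 elsewhere, and that of 6 granule cell markers was 21197.1 and 26473.3 in CbG and 732.2 to 1985.7 elsewhere. That of 3 CA3 markers was 2890.6 and 3389.9 in CA3 and 1048.5 to 1671.4 elsewhere, and that of 2 deep cortex markers was 1362.1 to 1745.1 in CTX and 706.1 to 1139.5 elsewhere. Not every listed marker followed its region: Kcnd3, of the CA3 list, was 520.1 and 399.9 in CA3 and reached 840.7 on CbG replicate 2, and Rorb, of the deep cortex list, was highest on CbG replicate 2 (162.3), so the cortical sum rests on Tle4. Array medians lay between 145.5 and 199.3, and levels of different probe sets are not compared with each other. The log2 ratio of 3′ to 5′ signal of beta-actin, a quality measure, was 6.52 on CbG replicate 2. It was 3.88 on CbG replicate 1 and 3.85 to 5.35 on all arrays but CbG replicate 2. The same ratio for Gapdh was 2.31 on CbG replicate 2, within the 1.31 to 2.76 of the rest. What this array's actin ratio means for its member signals was not tested. Among the 10 arrays, summed signals of 5 oligodendrocyte markers ran from 3849.6 to 12460.4 in VUL and from 8155.0 to 35487.4 in RES. Those of 7 astrocyte markers ran from 10443.9 to 24465.4 in VUL and from 8189.6 to 28863.5 in RES. In both sums the highest array was from CTX, and the part of these cells in the members' signals was not tested.

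Promoters of 9 of the 10 genes were found in the RefSeq table (GRCr8), each running from 250 bases before to 50 after the gene's start. Those of 4 members with calls in the study's own comparisons are shown 5′ to 3′ on the gene's strand. Capitals mark the GC box GGGCGG on either strand (its reverse reads CCGCCC) in Atp2b1, Cacna2d1 and Cacna2d3, and the motif TATATAAG in Itpr1.
Atp2b1, chr7:35622211-35622510, plus strand: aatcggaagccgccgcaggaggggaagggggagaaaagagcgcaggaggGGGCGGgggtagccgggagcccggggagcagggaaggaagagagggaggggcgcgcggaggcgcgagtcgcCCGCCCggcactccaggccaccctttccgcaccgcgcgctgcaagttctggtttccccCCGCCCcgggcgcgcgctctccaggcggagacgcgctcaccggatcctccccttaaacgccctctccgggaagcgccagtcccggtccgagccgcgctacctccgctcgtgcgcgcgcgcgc
Cacna2d1, chr4:20330098-20330397, minus strand, first of 3 overlapping entries: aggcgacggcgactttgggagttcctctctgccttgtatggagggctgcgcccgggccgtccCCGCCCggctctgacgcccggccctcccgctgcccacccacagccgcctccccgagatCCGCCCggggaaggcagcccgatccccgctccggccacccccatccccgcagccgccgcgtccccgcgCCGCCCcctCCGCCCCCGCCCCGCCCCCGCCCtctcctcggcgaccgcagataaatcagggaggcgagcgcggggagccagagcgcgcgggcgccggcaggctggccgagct
Cacna2d3, chr16:4918850-4919149, minus strand: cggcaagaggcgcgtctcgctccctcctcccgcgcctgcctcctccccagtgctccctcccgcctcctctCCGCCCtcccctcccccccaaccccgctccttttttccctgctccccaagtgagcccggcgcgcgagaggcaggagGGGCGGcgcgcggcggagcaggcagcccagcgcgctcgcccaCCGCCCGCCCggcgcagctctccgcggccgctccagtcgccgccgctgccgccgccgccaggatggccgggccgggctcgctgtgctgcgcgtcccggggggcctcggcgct
Itpr1, chr4:142743190-142743489, plus strand: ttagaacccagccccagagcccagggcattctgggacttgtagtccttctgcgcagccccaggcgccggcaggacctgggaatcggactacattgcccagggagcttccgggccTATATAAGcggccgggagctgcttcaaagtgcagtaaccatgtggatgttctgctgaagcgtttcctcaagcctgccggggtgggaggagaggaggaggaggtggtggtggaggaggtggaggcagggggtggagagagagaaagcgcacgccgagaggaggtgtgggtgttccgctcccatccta
The GC box occurred 3 times in the Atp2b1 window, 7 times in Cacna2d1, where some copies abut, and 4 times in Cacna2d3, where a pair of copies overlaps. The Itpr1 window held none. Of the 9 members matched, 6 held at least 1 GC box, and 34.9% of 27457 rat promoter windows of the same length did. The TATATAAG motif began 136 bases before the listed start of Itpr1 and occurred in 1 of the 9 members and in 1.35% of all windows. It was searched after that window had been read. The GC content was 74.3% for Atp2b1, 78.3% for Cacna2d1, 79.3% for Cacna2d3 and 62.0% for Itpr1, against a median of 52.3% over all windows. These letters are a description of the windows and do not show a factor at work.

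Of the 20 member probe sets, 10 exceeded the array median on 7 or more of the 10 arrays and entered the test, and 10 did not. The tested ones stood for 8 genes: 1 each for Atp2b1, Atp2b2, Atp2b3, Slc8a1, Itpr1, Cacna2d1 and Cacna2d3, and 3 for Atp2a2. The exchanger Slc8a2 and the channel pore Cacna1a had no probe set past this filter. Slc8a2 gave signals of 108.2, 174.3 and 130.1 in CA1, 112.0 and 98.2 in CbG, 154.0 and 97.9 in CA3, and 113.6, 137.2 and 129.3 in CTX. The brightest of the 4 Cacna1a probe sets ran from 47.5 to 179.2 over the 12 arrays. Both were above the array median on 1 of 12 arrays, so their levels in the regions cannot be ordered here.

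**Figure D1:**
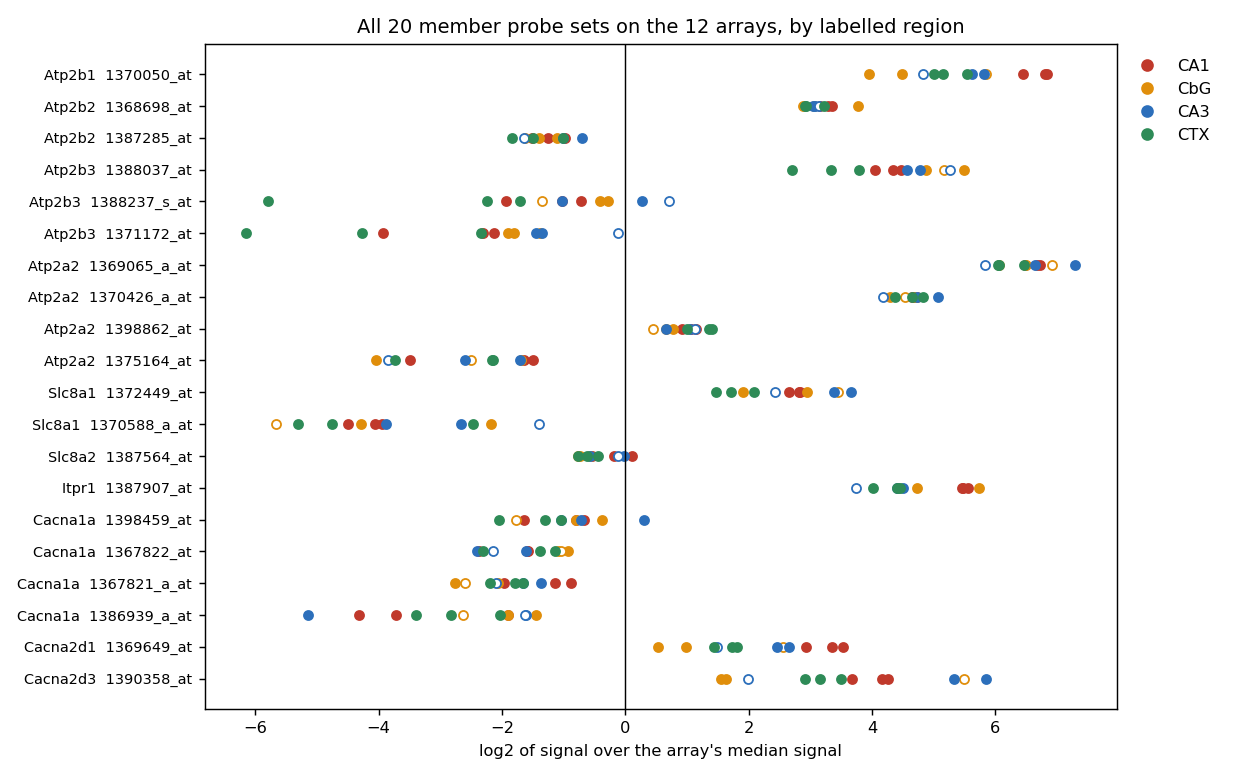
Each point is 1 array, coloured by its labelled region, with the log2 of the signal over that array's median signal on the x axis and the 20 member probe sets down the y axis; open points mark CbG replicate 3 and CA3 replicate 3, as labelled. The 10 tested probe sets lie to the right of 0 on all 12 arrays, while those of Slc8a2 and Cacna1a lie at or left of it apart from 1 array each.

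Across the 4 regions, the extrusion pumps differed in unlike ways. Atp2b1, the most widely expressed plasma membrane pump, was brightest in CA1, where its signals were 13895.8, 18140.5 and 16848.1. It was 4196.9 and 2585.8 in CbG, 7724.8 and 8200.5 in CA3, and 6268.0, 8745.4 and 7063.5 in CTX. The CA1 and CbG arrays thus stood above and below all others, at opposite ends, although both regions belong to VUL. Averaged over its regions, VUL did not separate from RES, with a log2 difference of -0.01 ± 0.18 (SE, limma, adjusted p = 0.964).

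Within the hippocampus, Atp2b1 was 1.96-fold higher in CA1 than in CA3 (log2 difference 0.97 ± 0.26, adjusted p = 0.035, limma with Benjamini-Hochberg adjustment over 7463 probe sets). In the other pair it fell by 1.00 ± 0.26 on the log2 scale, or 2.00-fold, in CbG relative to CTX (adjusted p = 0.015). The difference between these differences was itself past the threshold, at 1.97 ± 0.39 (adjusted p = 0.00431), and did not pass without the arrays of replicate 2 (1.36, adjusted p = 0.055). Over all 12 arrays as labelled, none of these 3 values passed (adjusted p = 0.303, 0.663 and 0.227). After the 2 labels were exchanged they were 0.94, -0.81 and 1.75 and passed (adjusted p = 0.0136, 0.0131 and 0.00137). CA1 exceeded CbG by 2.47 ± 0.26 (adjusted p = 1.64e-05) and CTX by 1.47 ± 0.22 (adjusted p = 0.000483), and CbG lay below CA3 by a log2 difference of -1.50 ± 0.27 (adjusted p = 0.000998). CA3 and CTX were next to each other in the order CA1, CA3, CTX, CbG and did not pass (0.50 ± 0.26, adjusted p = 0.153). The CA1 over CA3 call was lost without any single CA1 or CA3 array, CTX replicate 2 or CTX replicate 3. The log2 difference then stayed between 0.92 and 1.12. Leaving out the arrays of any 1 replicate number also lost the call, with log2 differences from 0.89 to 1.11. The CbG call was lost without CbG replicate 2 (-0.56, adjusted p = 0.2) or CTX replicate 2 (-0.77, adjusted p = 0.119).

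Atp2b2, the fast plasma membrane pump, differed little among the regions. Its signals were 1414.0, 1573.9 and 1514.5 in CA1, 1379.5 and 2291.5 in CbG, 1299.8 and 1233.4 in CA3, and 1486.5, 1742.5 and 1500.3 in CTX. No pair of regions passed the test, and the spread between the highest and lowest fitted region was 0.30 on the log2 scale (adjusted p = 0.526). The VUL minus RES difference was 0.26 ± 0.17 (adjusted p = 0.287). Its highest array, CbG replicate 2, was also the array with the most Purkinje marker signal, as given with Itpr1.

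Atp2b3, a plasma membrane pump largely restricted to brain, was brightest in CbG, where Atp2b1 was dimmest. Its signals were 2610.6, 3588.4 and 2989.0 in CA1, 5516.2 and 7507.2 in CbG, 3708.6 and 3973.1 in CA3, and 1263.2, 2589.1 and 2013.7 in CTX. All CbG arrays lay above the other 8, and all CTX arrays lay below those of CA1, CbG and CA3. It was 3.84-fold higher in CbG than in CTX (log2 difference 1.94 ± 0.24, adjusted p = 0.000107), and it was the one member still called for this comparison over all 12 arrays as labelled (1.90 ± 0.23, adjusted p = 0.0134). CA1 and CA3 did not pass (-0.41 ± 0.24, adjusted p = 0.324), and the difference between the pairs was -2.35 ± 0.35 (adjusted p = 0.00071). The order was CbG, CA3, CA1, CTX. The CbG over CA3 step did not pass (0.52 ± 0.25, adjusted p = 0.114), whereas CA1 exceeded CTX by 1.02 ± 0.20 (adjusted p = 0.0028) and CA3 exceeded CTX by 1.42 ± 0.24 (adjusted p = 0.00152). Over both pairs Atp2b3 was 1.70-fold higher in VUL than in RES (0.77 ± 0.16, adjusted p = 0.00523), although CA1 minus CA3 had the opposite sign. In CA1 against CbG, Atp2b3 was lower (-0.92 ± 0.24, adjusted p = 0.00889), while Atp2b1 was higher.

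**Figure D2:**
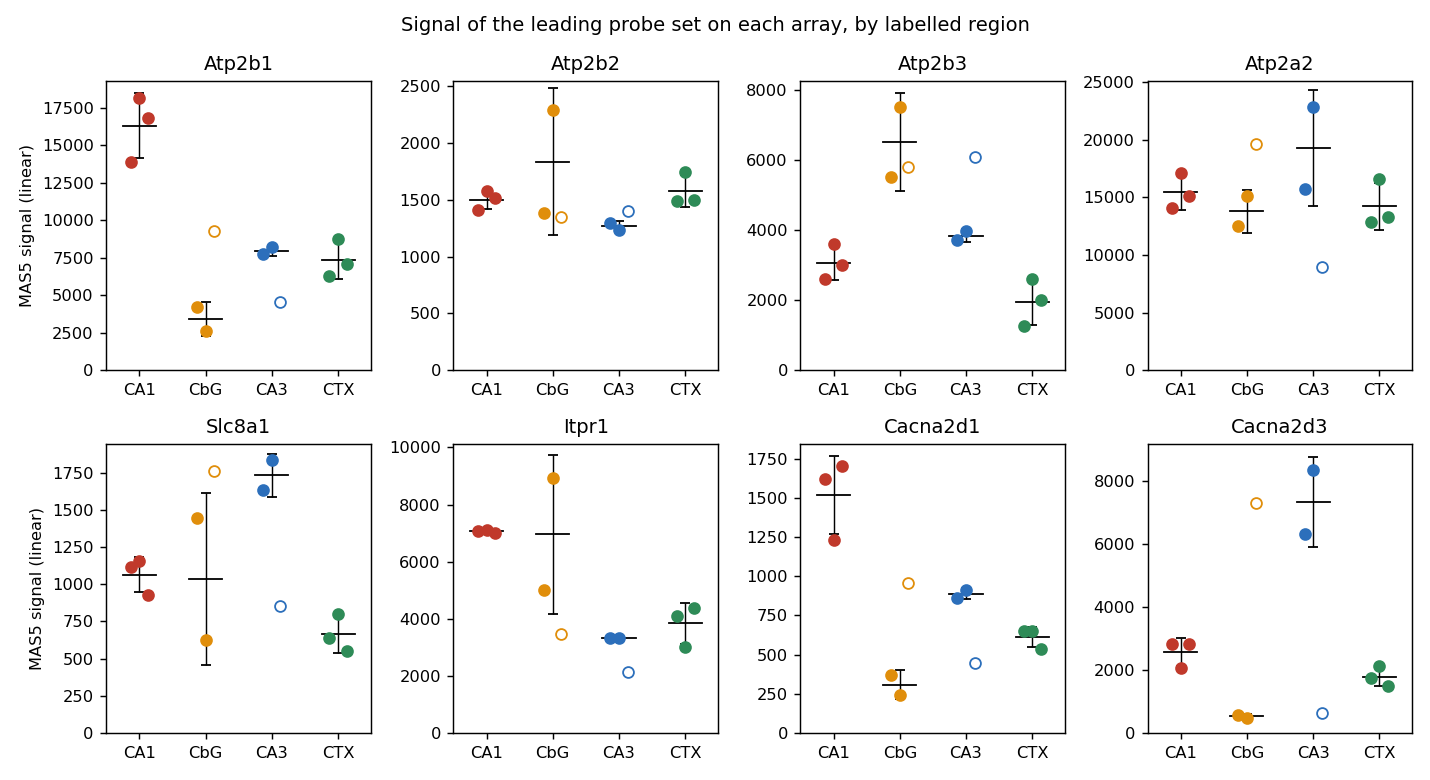
Each panel shows 1 of the 8 tested genes, with the MAS5 signal of its leading probe set (linear axis starting at 0) against labelled region; points are arrays, bars are means ± SD over the filled points (n = 3 in CA1 and CTX, n = 2 in CbG and CA3). The open points are the arrays labelled CbG replicate 3 and CA3 replicate 3, and for Cacna2d3 they lie at 7306.8 and 627.1, each among the filled points of the other region.

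Atp2a2 encodes the reticulum pump, and its 3 tested probe sets did not move together. The leading one gave 14085.3, 17056.6 and 15141.2 in CA1, 12464.5 and 15096.2 in CbG, 15725.3 and 22834.2 in CA3, and 12862.6, 16567.1 and 13261.2 in CTX. The CA3 arrays lay above both CbG arrays, and the other ranges overlapped. The fit called it higher in CA3 than in CTX by 0.76 ± 0.21 (adjusted p = 0.0182) and lower in CbG than in CA3 (-0.70 ± 0.22, adjusted p = 0.0246), and neither pair of the study's design passed. The other 2 tested probe sets, with signals of 2859.9 to 5299.8 and of 220.7 to 526.9, were called in 0 of the 6 comparisons of 2 regions, so the calls of Atp2a2 rest on 1 probe set.

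The sodium/calcium exchanger Slc8a1 was brightest in CA3. Its signals were 1112.9, 1153.7 and 929.9 in CA1, 1444.7 and 624.2 in CbG, 1630.6 and 1832.3 in CA3, and 640.2, 798.1 and 553.5 in CTX. The 2 CbG arrays spanned most of the range of the other regions and the CA3 arrays stood above all others. CA3 exceeded CTX by 1.66 ± 0.30 (3.16-fold, adjusted p = 0.00235) and CA1 exceeded CTX by 1.01 ± 0.26 (adjusted p = 0.00973), and CbG lay below CA3 (-1.09 ± 0.31, adjusted p = 0.0147). CA1 against CA3 (-0.64 ± 0.30, adjusted p = 0.209) and CbG against CTX (0.56 ± 0.30, adjusted p = 0.187) did not pass. The CbG minus CTX value depended on the CbG array used: it was 1.20 (adjusted p = 0.00966) without CbG replicate 2 and -0.07 (adjusted p = 0.875) without CbG replicate 1. With the 2 labels exchanged it passed, at 0.67 ± 0.25 (adjusted p = 0.0476). The difference between the pairs was -1.21 ± 0.44 over 10 arrays (adjusted p = 0.0901) and -1.39 ± 0.35 with the labels exchanged (adjusted p = 0.0109).

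Itpr1, the release channel of the reticulum, was evenly bright in CA1, with signals of 7071.7, 7116.3 and 6985.6. It was 4991.7 and 8932.0 in CbG, 3310.0 and 3316.1 in CA3, and 4111.4, 3013.2 and 4380.0 in CTX. All 5 VUL arrays lay above all 5 RES arrays. Itpr1 was 2.00-fold higher in VUL than in RES (log2 difference 1.00 ± 0.19, adjusted p = 0.00317). Within the pairs the estimates were 0.99 ± 0.29 for CA1 minus CA3 (adjusted p = 0.0459) and 1.01 ± 0.29 for CbG minus CTX (adjusted p = 0.0221). The difference between the pairs was -0.02 ± 0.42 (adjusted p = 0.984), and 0.61 ± 0.48 with the 2 labels exchanged (adjusted p = 0.391). The CbG minus CTX estimate was 1.56 without CbG replicate 1 and 0.45 without CbG replicate 2, so an equal size in both pairs is not shown. CA1 against CbG did not pass (0.21 ± 0.29, adjusted p = 0.594), nor did CA3 against CTX (0.23 ± 0.29, adjusted p = 0.56). The call for CA1 minus CA3 was lost without any single CA1 or CA3 array, CTX replicate 1 or CTX replicate 3 (log2 difference from 0.88 to 1.06, adjusted p up to 0.29).

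The cerebellar value of Itpr1 stood beside Purkinje cell markers. CbG replicate 1 had signals of 1883.2 for Pcp2, 4181.2 for Calb1, 3849.7 for Car8 and 883.6 for Pvalb. CbG replicate 2, with the higher Itpr1, had 3601.6, 12798.2, 9876.9 and 2046.8 for the same genes. The array labelled CA3 replicate 3, with granule cell Gabra6 at 2567.6, had 294.9 for Pcp2, 72.0 for Calb1, 115.0 for Car8 and 5.3 for Pvalb, and its Itpr1 signal of 2119.3 was the lowest of the 12 arrays. The sum over 6 of 7 listed Purkinje markers measured was 10883.4 and 28587.1 on CbG replicates 1 and 2, between 1218.4 and 1731.0 in CA1, 767.9 and 654.7 in CA3, and between 2458.7 and 2566.5 in CTX. It was 499.6 on the array labelled CA3 replicate 3. Pcp2, Calb1, Pvalb, Car8 and Slc1a6 were each higher on both CbG arrays than on the other 8, whereas Cbln2 was lower there (9.6 and 18.5) than in CTX (1159.0 to 1346.9). The CA1 arrays had high Itpr1 at low sums. CbG replicate 2 was also the array with the highest beta-actin ratio. The parts of Purkinje cells and of that array's quality in the CbG signal of Itpr1 were not tested. Without CbG replicate 2 the CbG minus CTX difference was 0.45 (adjusted p = 0.301), without CTX replicate 2 it was 0.73 (adjusted p = 0.161), and with the 2 labels exchanged, which brings the array with little Purkinje signal into CbG, it was 0.45 ± 0.34 (adjusted p = 0.324).

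**Figure D3:**
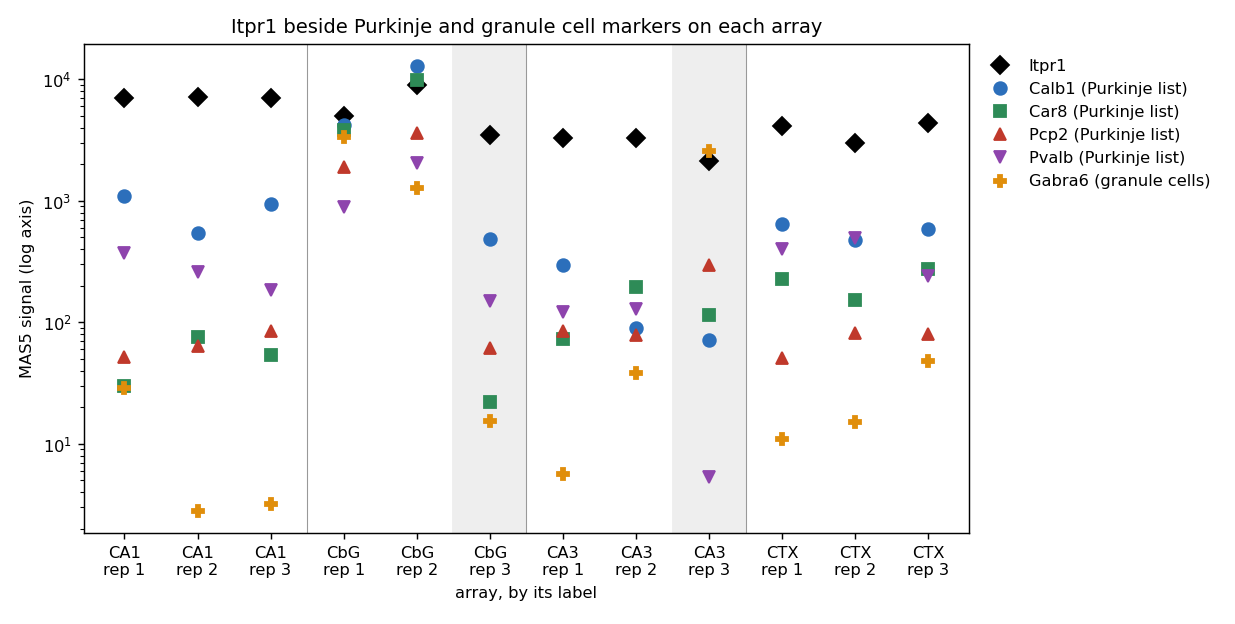
Points give the MAS5 signal (log axis) of Itpr1, of Calb1, Car8, Pcp2 and Pvalb from the Purkinje list and of the granule cell gene Gabra6 on each of the 12 arrays, ordered by labelled region; the shaded arrays are those labelled CbG replicate 3 and CA3 replicate 3. Itpr1 is at 8932.0 on CbG replicate 2, where Calb1 is at 12798.2, and at 2119.3 on the array labelled CA3 replicate 3, where Gabra6 is high and Calb1 is at 72.0.

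The auxiliary subunit Cacna2d1, a target of gabapentin, had signals of 1618.5, 1231.3 and 1700.6 in CA1, 371.9 and 241.3 in CbG, 862.0 and 913.1 in CA3, and 647.3, 653.1 and 537.3 in CTX. The 4 regions did not overlap on the 10 arrays, in the order CA1, CA3, CTX, CbG, which was also the order of Atp2b1. CA1 exceeded CbG 5.68-fold (log2 difference 2.51 ± 0.26, adjusted p = 1.35e-05) and CTX 3.07-fold (1.62 ± 0.22, adjusted p = 0.000248). CA3 exceeded CTX by 0.91 ± 0.26 (adjusted p = 0.0191). CA1 over CA3, neighbours in the order, did not pass (0.71 ± 0.26, adjusted p = 0.104), and CbG was lower than CTX (-0.89 ± 0.26, adjusted p = 0.0246). The difference between the pairs was 1.60 ± 0.38 (adjusted p = 0.0137), and VUL minus RES was -0.09 ± 0.17 (adjusted p = 0.756). Over all 12 arrays as labelled the CbG minus CTX value (adjusted p = 0.823) and the difference between the pairs (adjusted p = 0.377) did not pass. After the 2 labels were exchanged both passed, at -0.65 ± 0.23 (adjusted p = 0.0426) and 1.37 ± 0.33 (adjusted p = 0.00891). The CbG against CTX call was lost without CbG replicate 2 (-0.69, adjusted p = 0.178), CTX replicate 1 (-0.88, adjusted p = 0.0874) or CTX replicate 2 (-0.67, adjusted p = 0.165).

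Cacna2d3, the auxiliary subunit with the widest range among the members, had signals of 2817.7, 2064.1 and 2840.0 in CA1, 578.1 and 489.6 in CbG, 6338.8 and 8359.1 in CA3, and 1744.6, 2121.8 and 1506.6 in CTX. CA3 stood above all other arrays and CbG below them, and only CA1 and CTX overlapped. CbG was 16.0-fold lower than CA3 (log2 difference -4.00 ± 0.29, adjusted p = 9.5e-07). CA1 was 2.92-fold lower than CA3 (-1.55 ± 0.28, adjusted p = 0.00441) and CbG was 3.06-fold lower than CTX (-1.62 ± 0.28, adjusted p = 0.00138), and the difference between these pairs was 0.07 ± 0.41 (adjusted p = 0.931). VUL was thus 2.99-fold lower than RES (-1.58 ± 0.19, adjusted p = 0.000134). CA1 exceeded CTX by 0.84 ± 0.24 (adjusted p = 0.0164), so all 4 regions differed. The study selected this probe set for its VUL and RES difference on these arrays, so the call is not independent evidence of its direction. The CA1 against CA3 call was lost without CA3 replicate 2 (-1.26, adjusted p = 0.102). On the 12 arrays as labelled the VUL minus RES difference was -0.33 ± 0.86 (adjusted p = 0.951), and with the 2 labels exchanged it was -1.50 ± 0.16 (adjusted p = 2.71e-05).

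Counted over the 10 tested member probe sets, VUL and RES differed in 3: Itpr1 and Atp2b3 were higher and Cacna2d3 was lower in VUL. To be called, a probe set needed a change of 1.5-fold or more with its adjusted p below 0.05. Of all 7463 probe sets tested, 17.8% were called in this comparison, 8.66% higher and 9.17% lower. CA1 and CA3 differed in 3 member probe sets, with Atp2b1 and Itpr1 higher and Cacna2d3 lower in CA1, against 10.5% of all tested (5.48% higher, 5.02% lower). CbG and CTX differed in 5, with Atp2b3 and Itpr1 higher and Atp2b1, Cacna2d1 and Cacna2d3 lower in CbG, against 26.3% of all (14.1% higher, 12.2% lower). Any difference among the 4 regions was called in 7 of 10, against 60.8% of all, a share near the members' own. Among the leading probe sets of the 8 genes, the absolute log2 difference had a median of 0.19 for VUL minus RES, against 0.27 over all tested, 0.68 for CA1 minus CA3, against 0.30, and 0.94 for CbG minus CTX, against 0.42. The members were chosen with earlier results of these data known, so these counts and medians are not a neutral comparison with all tested.

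The remaining comparisons of 2 regions called 6 member probe sets for CA1 minus CTX (34.7% of all tested), 5 for CbG minus CA3 (43.1%), 4 for CA1 minus CbG (39.3%) and 5 for CA3 minus CTX (34.2%). The 6 of CA1 minus CTX were all higher in CA1, where 27.4% of all tested were. The 5 of CbG minus CA3 were all lower in CbG (29.2% of all), and the 5 of CA3 minus CTX were all higher in CA3 (27.1%). The median over all tested probe sets lay on the same side, at 0.33 for CA1 minus CTX, -0.24 for CbG minus CA3 and 0.36 for CA3 minus CTX. The difference between the pairs passed at an adjusted p under 0.05 in 3 of the 10 (Atp2b1, Atp2b3 and Cacna2d1), against 14.9% of all.

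**Figure D4:**
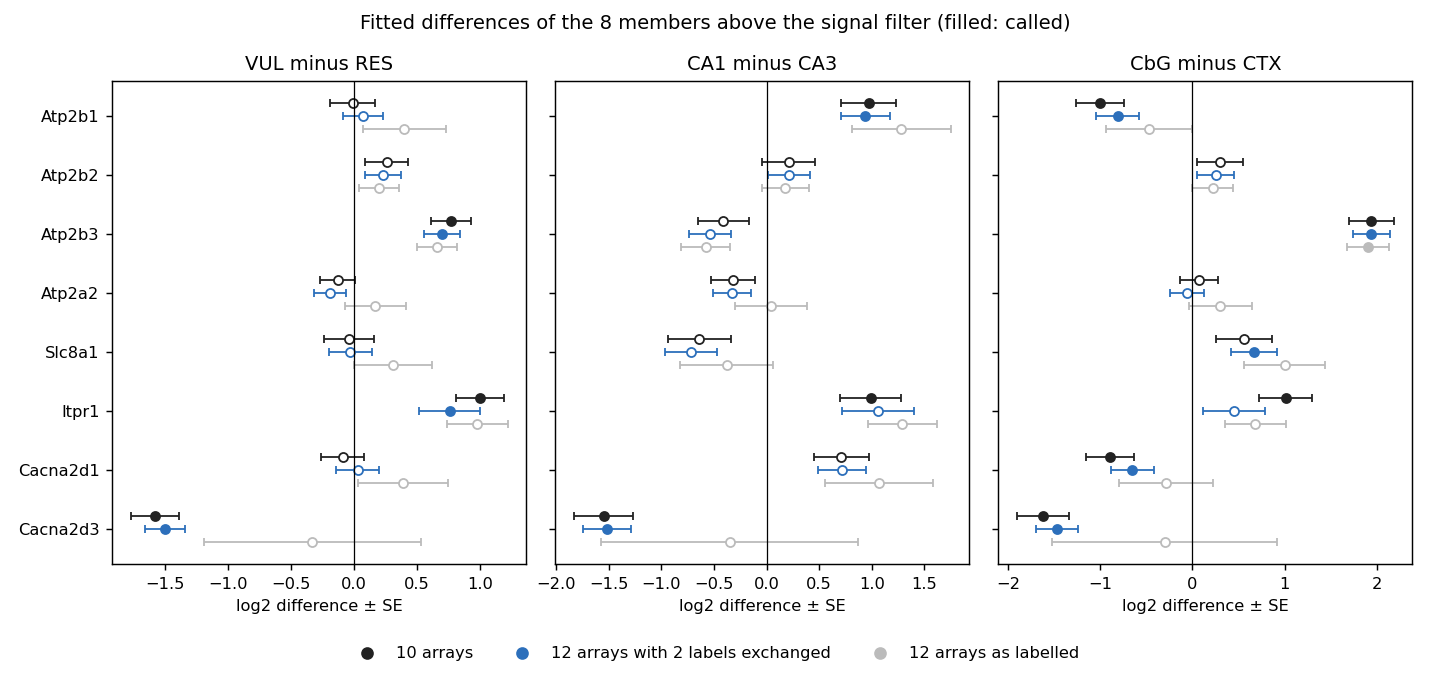
Each panel gives the fitted log2 difference ± SE (x axis) of the leading probe set of the 8 tested genes for 1 comparison: over 10 arrays in black, over 12 arrays with the 2 labels exchanged in blue and over 12 arrays as labelled in grey; filled points are called. Cacna2d3 lies at -1.58, -1.55 and -1.62 over 10 arrays, while Atp2b1 lies at 0.97 for CA1 minus CA3 and well below 0 for CbG minus CTX.

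The arrangement of the 2 arrays changed these counts. With their labels exchanged, 3, 2 and 5 member probe sets were called for VUL minus RES, CA1 minus CA3 and CbG minus CTX, where 18.5%, 13.5% and 34.0% of the 7535 tested were, and 7 for any region, against 66.9%. Slc8a1 then entered the CbG minus CTX calls, and Itpr1 left those of both pairs, with adjusted p = 0.0558 for CA1 minus CA3. As labelled, 0, 0, 1 and 1 were called, against 0%, 1.30%, 0.624% and 3.20% of all. At an unadjusted limma p under 0.05, 2 member probe sets passed for VUL minus RES, 3 for CA1 minus CA3 and 3 for CbG minus CTX as labelled. The share of all tested probe sets at that threshold was not counted, so nothing about the members is read from these numbers. The methods' paired test of VUL against RES, at its unadjusted threshold and 1.5-fold, called 2 of the 10 over 4 within-number pairs (8.04% of all tested) and 1 over all 6 pairs as labelled (2.60%), and 0 in both after Benjamini-Hochberg adjustment. On the 8 leading probe sets, the array labelled CbG replicate 3 lay nearer the mean of CA3 replicates 1 and 2 than that of CbG replicates 1 and 2 for 7 genes, with Atp2b3 the exception. The array labelled CA3 replicate 3 lay nearer CbG for 6, with Atp2b2 and Itpr1 the exceptions.

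Testing all probe sets with no signal filter ended most of these calls. Under it 1 of the 20 member probe sets was called for VUL minus RES (3.09% of all 15866), 0 for CA1 minus CA3 (0.271%), 1 for CbG minus CTX (4.37%) and 4 for any region (15.0%), with the same log2 differences and larger adjusted p (Itpr1 0.0839, Atp2b3 0.084 for VUL minus RES).

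Over all 12 arrays, whatever their labels, the members' signals were compared in 28 pairs of genes. Pearson's r of centred log2 signal was above 0.5 in 11 pairs and below 0 in 8. It was 0.96 between Atp2b1 and Cacna2d1, 0.80 between Atp2a2 and Cacna2d3, 0.76 between Cacna2d1 and Cacna2d3, 0.69 between Atp2a2 and Slc8a1, 0.68 between Slc8a1 and Cacna2d3, 0.67 between Atp2b1 and Cacna2d3 and 0.62 between Atp2b2 and Itpr1. It was -0.18 between Atp2b1 and Atp2b3, and 0.02 between Slc8a1 and Itpr1. Arrays of 1 region are not independent points, so these are descriptions across 12 arrays. Among 6321 named probe sets, the genes most like each member were Tm7sf3 (r = 0.985) and Dgka (0.979) for Atp2b1, Mix23 (0.938) and Mrpl48 (0.920) for Atp2b2, and Eif2s3 (0.934) and Ncoa4 (0.925) for Atp2b3. For Atp2a2 they were Dohh (0.957) and Serinc1 (0.939), for Slc8a1 Coro7 (0.961) and Scamp1 (0.931), and for Itpr1 Ctsl (0.852) and Srrd (0.851). For Cacna2d1 they were Herc3 (0.990) and Actr2 (0.986), and for Cacna2d3 Slc17a7 (0.990), a vesicular glutamate transporter, and Acsl5 (0.987).

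Other calcium transport and binding genes were counted from a list of 63, of which 50 were on the array and 20 were tested. For VUL minus RES, 0 were higher and 3 lower over the 10 arrays, and the counts were the same for CA1 minus CA3 and for CbG minus CTX. Of all tested, 8.66%, 5.48% and 14.1% were higher and 9.17%, 5.02% and 12.2% lower in these comparisons. With the 2 labels exchanged 3, 2 and 3 were lower and 0, 0 and 2 higher, where 18.5%, 13.5% and 34% of all were called in either direction. As labelled 0 were called in each comparison, against 0%, 1.3% and 0.624% of all. Their median log2 difference for VUL minus RES was -0.11, against 0.04 over all tested. Slc24a2, a potassium-dependent sodium/calcium exchanger, had signals of 940.8, 1136.9 and 1150.9 in CA1, 89.6 and 18.3 in CbG, 1609.8 and 1289.7 in CA3, and 472.9, 693.1 and 506.6 in CTX. The CbG signals lay under the medians of their arrays (187.5 and 167.0), so no size is given for its difference from the other regions. The release channel Ryr2 was lower in CA1 (988.5, 820.8 and 807.6) than in CA3 (1894.2 and 2078.3), with a log2 difference of -1.25 ± 0.25 (adjusted p = 0.00733). Cacna1c, an L-type channel pore, was also lower in CA1 (227.8, 303.7 and 113.2) than in CA3 (580.8 and 520.5), at -1.29 ± 0.28 (adjusted p = 0.0116). Its signal on CA1 replicate 3 lay under that array's median of 147.7, so the size of this difference is uncertain. The channel subunit Cacnb2 was lower in CbG than in CTX (-1.02 ± 0.24, adjusted p = 0.00908). Any difference among the regions was called for 12 of the 20, against 60.8% of all tested, and for 0 as labelled.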

How the data were processed

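Total RNA of laser-captured neurons was labelled in 2 cycles and hybridised to 12 RAE230A arrays, per the labels. The authors made the deposited values, MAS5 signal intensity on a linear scale, with the GeneChip Operating Software and scaled each array to 1 target intensity. Array medians were 145.5 to 199.3, and the number of arrays limits the precision. Groups were taken from the labels, with 0 columns left without a sample. Probe sets were named by Entrez ID: 12783 had 1 symbol, 312 several (none named) and 2771 were not listed; 57 controls were left out. Signals were taken to log2, centred on the array median and, where above that median in at least 7 of 10 (8 of 12) arrays, fitted in limma 3.58.1 (R 4.3.3) with region means and the replicate number as a block, and p was adjusted by the Benjamini-Hochberg method. The block follows the methods' paired tests. Deviations from region means correlated at 0.12 on average between arrays of the same number (13 pairs, from -0.0356 to 0.22) and at -0.0651 between others. Deviations within a region cancel out, so these averages depend on each other. They do not settle whether the numbers mark pairs. The labels call the replicates biological, and how many rats they stand for was not settled here, so p-values measure the spread between these samples.

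All 10 members are reported, each by its probe set with the highest mean signal, with the others where they passed the filter. Members and lists were chosen with earlier results of these data known. The fit was run on simulated data with known VUL minus RES changes, with no replicate effect and no other region differences. Only that comparison was scored, so the other comparisons were not tested this way. Alternatives covered scaling, low signals, the filter, the block, the variance prior and leaving out arrays. Promoters came from a RefSeq table, and scipy 1.17.1 and matplotlib 3.10.9 under Python 3.11.15 were used.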

Additional observations from a re-analysis of the deposited data

Results flagged for a closer look

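For 3 members the difference between CA1 and CA3 was unlike that between CbG and CTX in the test of that difference itself (limma, 10 arrays, adjusted over all probe sets tested). It was 1.97 ± 0.39 on the log2 scale for Atp2b1 (adjusted p = 0.00431), which was higher in CA1 than in CA3 and lower in CbG than in CTX. It was -2.35 ± 0.35 for Atp2b3 (adjusted p = 0.00071), where the difference lay in the cerebellar and cortical pair. It was 1.60 ± 0.38 for Cacna2d1 (adjusted p = 0.0137). The Atp2b1 value did not pass without the arrays of replicate 2 (1.36, adjusted p = 0.055). The Cacna2d1 value did not pass without CA3 replicate 1 (1.37, adjusted p = 0.0766), CTX replicate 2 (1.34, adjusted p = 0.0763) or the arrays of replicate 1 (1.56, adjusted p = 0.0617). As labelled over 12 arrays, Atp2b3 alone of these passed (-2.48, adjusted p = 0.00907). After the 2 labels were exchanged, Atp2b1 (1.75, adjusted p = 0.00137), Atp2b3 (-2.48, adjusted p = 2.92e-05) and Cacna2d1 (1.37, adjusted p = 0.00891) passed.

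Of 20 groups of 5 arrays examined (VUL and RES for each of the 10 genes), 1 held an array far from the rest. The Atp2b2 signal of 2291.5 on CbG replicate 2 lay apart from the other VUL arrays by 0.787 of the group's range. For arrays drawn from 1 population chance flags about 1 in 20 groups, and each group here pools 2 regions.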

How the results depend on the processing

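Over the 10 arrays, 3 member probe sets were called for VUL minus RES, 3 for CA1 minus CA3, 5 for CbG minus CTX and 7 for any region, 3 leading probe sets for the difference between the pairs, and 28 of 48 comparisons of 2 regions. Over all 12 arrays as labelled these counts were 0, 0, 1, 1, 1 and 3, and with no signal filter they were 1, 0, 1, 4, 1 and 10. Of all tested probe sets, each comparison of 2 regions called 10.5% to 43.1% over the 10 arrays. As labelled, CA1 minus CA3 called 1.3% of all and CbG minus CTX 0.624%, and with no signal filter 0.271% and 4.37%. Shares for the remaining comparisons of 2 regions were not counted in these settings. The counts for the pairs' difference and for the 2-region comparisons were followed across alternatives chosen after seeing the data. Leaving out 1 array or 1 replicate number gave 0 to 3 for CA1 minus CA3 and 2 to 5 for CbG minus CTX; where this left a region with 1 array, that array was assumed to vary like the others. Without the replicate block the counts were 3, 3, 5, 7, 4 and 28, and no call of a leading probe set in the study's comparisons changed. The pairs' difference of Slc8a1 passed without the block. Shares of all tested probe sets were not counted without the block or with arrays left out. For the pairs' difference they were counted over the 10 arrays only. Nothing about the members is therefore read from the counts that lack a share.

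Some differences near 0 changed sign. For VUL minus RES, Atp2b1 was 0.40 as labelled, 0.07 exchanged and -0.24 to 0.22 with arrays left out, Cacna2d1 was 0.39, 0.03 and -0.25 to 0.19, Slc8a1 was 0.31 as labelled and -0.39 to 0.35 with arrays left out, and Atp2a2 was 0.17 as labelled. For CA1 minus CA3, Atp2a2 was 0.04 as labelled and 0.19 by its dimmest tested probe set. For CbG minus CTX, Atp2a2 was -0.06 exchanged, -0.21 with quantile normalization, -0.07 with no centring, -0.10 and -0.53 by its other tested probe sets, the second being the dimmest. With arrays left out, CbG minus CTX ran from -0.07 to 0.68 for Atp2b2 and from -0.08 to 1.25 for Slc8a1. Of 627 recomputed differences of single members, 534 kept their direction and side of the threshold, 60 lost the call, 4 gained it and 29 changed sign. The CbG minus CTX call of Itpr1 was also lost with quantile normalization (0.70, adjusted p = 0.0571). With 2 or 3 arrays a region, a difference that did not pass is not shown to be absent, and the regions' levels of Slc8a2 and Cacna1a, under the array median, were not ordered.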
